A study of Homo sapiens with 6 samples.

Results

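The genes described here code for glycoproteins and proteoglycans of the extracellular matrix: fibronectin and other secreted glycoproteins, laminin chains, nidogens, elastic fibre and microfibril proteins, small leucine-rich proteoglycans and a few larger proteoglycans and matrilins. They were taken as a named list of 47 genes, grouped by what their proteins do. The list was drawn up when earlier results of these data were known. Of these, 45 were measured, among 19775 genes in all. LAMA3 was not analysed here, and the probe sets of VTN carry 2 gene symbols, so that no single gene could be assigned to them.

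RNA was measured on 6 Affymetrix arrays of MDA231-LM2 cells, a human breast cancer cell line derived from MDA-MB-231 that metastasizes to the lungs. The study as a whole concerned the kinase JNK in breast cancer metastasis. The oncospheres, floating cell clusters of the kind grown to select for stem-like cells, were 3 biological replicates kept for 4 days on ultra-low adhesive plates in HuMEC medium that contained B27 (2%), bFGF at 10 ng/ml, EGF at 20 ng/ml and human insulin at 5 μg/ml. The monolayer group was 3 biological replicates attached to dishes in DMEM GlutaMAX with 10% fetal bovine serum, harvested 48 h after the medium had been renewed. The comparison addressed which genes differ between both culture forms. No cell received a further treatment, and attachment, medium, serum and culture time differed together and cannot be told apart. All cultures came from 1 cell line, so that p-values measure the spread between its cultures only. In such bulk samples, fewer cells that make a transcript and less of it per cell cannot be told apart.

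On an array, each transcript is read by 1 or more groups of short probes (probe sets), and the brightness of a probe set is its intensity, which rises with the amount of RNA but cannot be set against that of another gene. Each gene was represented by its brightest probe set with 1 gene symbol. A gene was called higher or lower in oncospheres where limma, a linear model with a spread estimate shared over all probe sets, gave an adjusted p below 0.05 over all 54613 probe sets. Changes are log2 of the oncospheres level over the monolayer level, with the standard error (SE). Arrays of 1 group correlated across probe sets at r between 0.993 and 0.996, against 0.966 to 0.973 between groups. All 7 basal and mesenchymal markers of this cell type (VIM, CD44, EGFR, AXL, CAV1, ZEB1 and MSN) lay above the median intensity of all values, 113.5, on every array. So did 7 of 10 luminal epithelial markers, so that this measure does not set the cell type apart.

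The extracellular matrix is a network that cells secrete and attach to. Fibronectin is drawn out into fibrils by integrins on the cell surface, fibrillins build microfibrils that store latent TGF-beta, and laminins polymerize under epithelial and endothelial cells into the sheet called the basement membrane. Each laminin is a trimer of an alpha, a beta and a gamma chain, and the chains LAMB1, LAMB2 and LAMC1 pair with LAMA4 or LAMA5 in many of them. In breast cancer, matrix glycoproteins are made by both fibroblasts and tumor cells.

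The stretches of DNA before the start sites of 5 of these genes are shown because they belong to members that changed in all of their probe sets: FN1 and SNED1, LAMB1 and LAMC1 as 2 chains of the same trimer, and VCAN as a member that was lower. Each is 250 bases long and ends at the base before the start, from RefSeq on GRCh38.p14: FN1 at chr2:215436069-215436318 (minus strand), SNED1 at chr2:240998368-240998617 (plus strand), LAMB1 at chr7:108003162-108003411 (minus strand), LAMC1 at chr1:183023170-183023419 (plus strand) and VCAN at chr5:83471494-83471743 (plus strand). Capitals mark matches, on either strand, to the motifs searched.
FN1: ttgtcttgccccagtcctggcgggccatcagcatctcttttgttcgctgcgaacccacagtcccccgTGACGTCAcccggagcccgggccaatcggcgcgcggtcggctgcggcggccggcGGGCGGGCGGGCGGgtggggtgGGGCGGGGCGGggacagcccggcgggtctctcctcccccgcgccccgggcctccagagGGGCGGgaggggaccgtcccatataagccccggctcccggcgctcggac
SNED1: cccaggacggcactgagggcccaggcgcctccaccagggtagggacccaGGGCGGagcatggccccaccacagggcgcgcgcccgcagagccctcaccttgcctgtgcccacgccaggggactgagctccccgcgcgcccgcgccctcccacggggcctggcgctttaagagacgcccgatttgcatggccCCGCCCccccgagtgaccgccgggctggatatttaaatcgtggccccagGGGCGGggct
LAMB1: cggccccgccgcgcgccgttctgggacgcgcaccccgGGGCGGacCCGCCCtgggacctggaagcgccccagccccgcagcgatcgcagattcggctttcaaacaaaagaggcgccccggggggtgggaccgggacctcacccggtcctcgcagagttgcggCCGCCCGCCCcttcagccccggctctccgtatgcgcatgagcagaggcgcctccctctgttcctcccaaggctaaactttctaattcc
LAMC1: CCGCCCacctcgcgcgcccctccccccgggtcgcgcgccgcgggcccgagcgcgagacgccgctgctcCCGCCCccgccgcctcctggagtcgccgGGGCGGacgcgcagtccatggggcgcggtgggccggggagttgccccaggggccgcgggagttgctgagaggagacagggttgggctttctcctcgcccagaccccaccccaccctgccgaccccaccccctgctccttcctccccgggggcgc
VCAN: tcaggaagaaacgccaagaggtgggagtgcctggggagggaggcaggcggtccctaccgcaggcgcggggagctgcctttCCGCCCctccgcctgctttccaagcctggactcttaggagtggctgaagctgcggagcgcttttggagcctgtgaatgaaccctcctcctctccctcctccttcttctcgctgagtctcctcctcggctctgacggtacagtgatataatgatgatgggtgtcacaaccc
The motifs searched on both strands were the AP-1 motif TGANTCA, at which JUN and FOS proteins bind, the core of the cAMP response element TGACGT, the TEAD motif GGAATG, the CAGAC box CAGACA, the GC box GGGCGG, the TATA box TATAAA, the hypoxia motif ACGTG and the E-box CACGTG, which contains the hypoxia motif. RefSeq promoters were matched for 32 of the 45 members. In the FN1 promoter, the letters TGACGT stood at 183 to 178 bases before the start and overlapped with the same motif on the other strand at 181 to 176. The FN1 promoter also held 6 GC boxes, of which the outermost lay 129 to 124 and 49 to 44 bases before the start. The GC box was found in 10 of 13 promoters of members that were higher (76.9%), 3 of 3 of members that were lower and 12 of 16 of members not called (75%), against 56.3% of 15383 promoters of all measured genes. The AP-1 letters were found in 2 of the 13 promoters of higher members (15.4%), those of ECM1 and MFAP2, and in that of EMILIN2, which was lower. They were in 5.03% of all promoters, and in none of the 16 of members not called. The core TGACGT was in the promoters of FN1 and LAMA5 and in 8.91% of all promoters. TEAD letters were in 1 of 13 promoters of higher members, 2 of 3 of lower members and 3 of 16 of members not called. The hypoxia motif was in 0 of 13 promoters of higher members, 1 of 3 of lower members and 1 of 16 not called. Over all promoters, TEAD letters were in 10.3% and the hypoxia motif in 21.2%. Median GC content was 70.4% in the promoters of higher members, 61.6% in those of lower members, 69.8% in those of members not called and 62.4% over all genes. These matches are a description of letters and were not tested.

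Of the 45 measured members, 15 (33.3%) were higher in oncospheres than in monolayer and 7 (15.6%) were lower, while 23 were not called. Over all genes, 34.9% were called, 17.3% as higher and 17.5% as lower, so that the share of lower members was close to that of all genes. Among changes of at least 1.5-fold, 13 members (28.9%) were higher and 2 (4.44%) were lower, against 7.23% and 5.6% of all genes. The 5 members that were at least 4-fold higher were SNED1, MGP, FN1, LAMA5 and MFAP2, which made 11.1% of the members, against 0.394% of all genes (78 genes). The list and its classes were drawn up with earlier results of these data known, so that these shares only describe the list. The median log2 change of the members was 0.026 and that of all genes -0.02, whereas the median absolute log2 change was 0.28 for the members and 0.14 for all genes. The members did not move as a whole, and a part of them changed strongly. The values of the 2 groups did not overlap for 28 members (62.2%), against 46.9% of all genes.

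**Figure D1:**
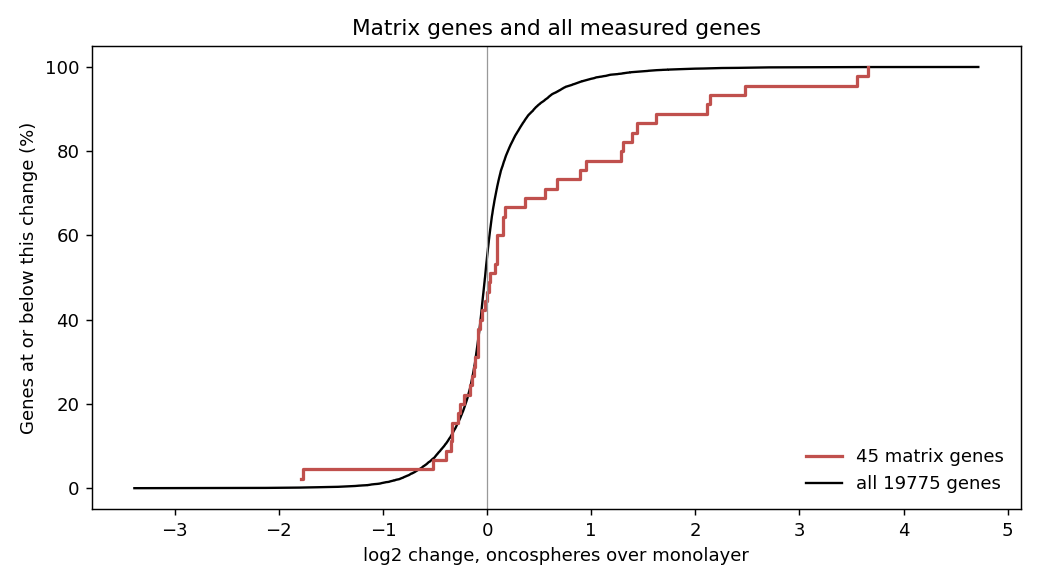
Cumulative share of genes (y axis, percent) at or below each log2 change of oncospheres over monolayer (x axis), for the 45 matrix genes in red and all 19775 genes in black. The 2 curves run close together below 0 and separate above it, where 13 of the matrix genes were at least 1.5-fold higher.

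**Figure D2:**
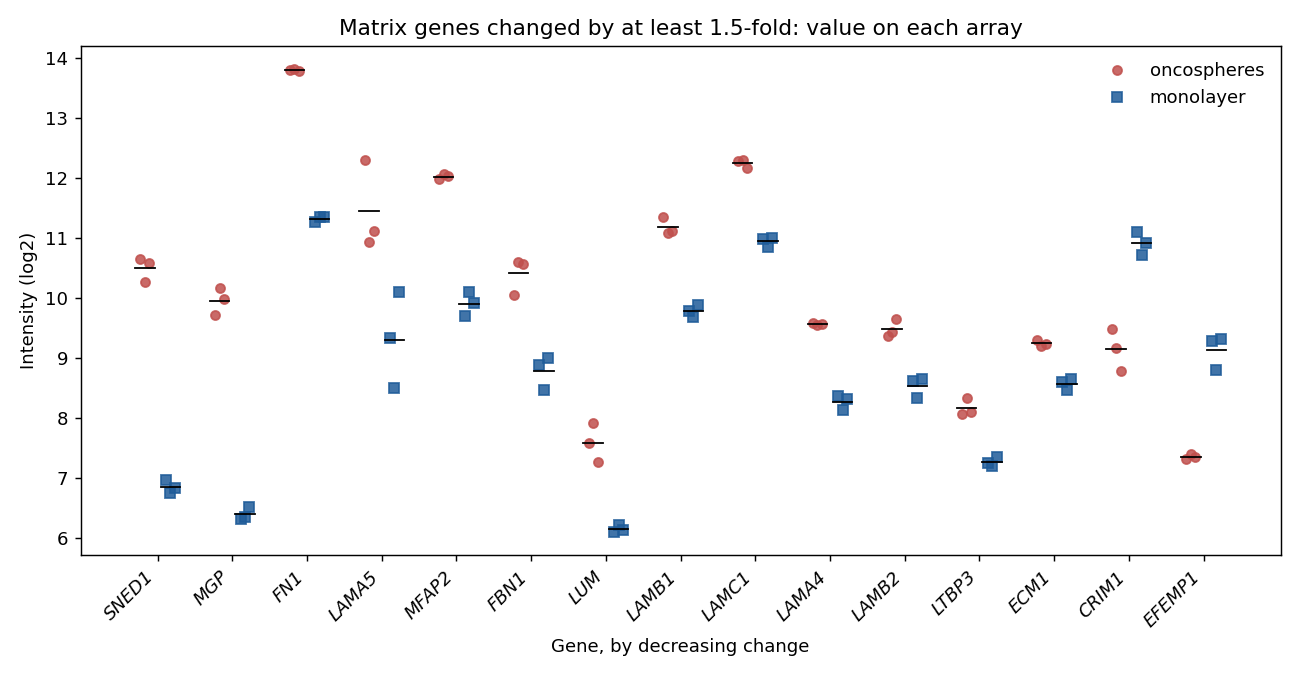
Intensity on the log2 scale (y axis) on each array for the 15 matrix genes called with a change of at least 1.5-fold (x axis), with oncospheres as red circles, monolayer as blue squares and group means as black bars. The groups are apart for every gene shown, and LAMA5 has the widest spread within both groups.

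The secreted glycoproteins had the highest median change of the 6 classes: 4 of the 6 measured were higher in oncospheres, 1 was lower and 1 was not called, with a median log2 change of 1.57. Fibronectin (FN1), the fibril-forming ligand of many integrins, had 14205, 14400 and 14108 in oncospheres, against 2454, 2617 and 2607 in monolayer. Its log2 change was 2.48 ± 0.055 (limma adjusted p = 4.09e-07). All 7 FN1 probe sets were higher, with log2 changes between 1.23 and 2.55, and the values of the oncosphere arrays lay within 1.02-fold of each other.

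SNED1, a secreted matrix protein with sushi, nidogen-like and EGF-like domains, had 1613, 1233 and 1530 in oncospheres, against 125, 107 and 114 in monolayer. Its log2 change was 3.66 ± 0.11 (limma adjusted p = 1.23e-06). All 4 of its probe sets were higher, but the other 3 by less, with log2 changes of 1.68, 1.53 and 0.81. Matrix Gla protein (MGP), a vitamin K-dependent inhibitor of calcification, had 840, 1147 and 1010 in oncospheres, against 79.6, 81.7 and 91.7 in monolayer. The MGP change was 3.56 ± 0.11 (limma adjusted p = 1.68e-06). The monolayer values of MGP lay below the median intensity, and the size of its fold depends on what is taken as background: with the 5th percentile of each array subtracted, the log2 change of MGP was 5.58 and that of SNED1 was 4.79. A dimmer MGP probe set had 65.3, 66 and 66.5 in oncospheres, against 60.2, 65.2 and 62.4 in monolayer, and was not called (log2 change 0.076).

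ECM1, a secreted glycoprotein of skin and vessel walls, had 631, 585 and 598 in oncospheres, against 387, 351 and 402 in monolayer, with a log2 change of 0.67 ± 0.07 (limma adjusted p = 0.000208). CRIM1, a membrane-anchored protein with cysteine-rich repeats that binds bone morphogenetic proteins, moved in the opposite direction. It had 713, 574 and 439 in oncospheres, against 2202, 1674 and 1938 in monolayer. The log2 change of CRIM1 was -1.77 ± 0.17 (limma adjusted p = 0.000151), and all 3 of its probe sets were lower.

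VWA1, a matrix protein with a von Willebrand factor A domain that is found in cartilage and nerve basement membranes, had no settled value. Its brightest probe set had 136, 132 and 144 in oncospheres and 122, 112 and 139 in monolayer, and was not called (log2 change 0.15, 95% confidence interval -0.04 to 0.35). The next probe set had 114, 114 and 109 in oncospheres, against 135, 132 and 159 in monolayer, and was lower (log2 change -0.33, limma adjusted p = 0.015). One further probe set of VWA1 was lower (-0.26) and 2 were not called.

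Among the laminin chains, 5 of 8 measured were higher, 1 was lower and 2 were not called, with a median log2 change of 1.12. The 5 were LAMA4, LAMA5, LAMB1, LAMB2 and LAMC1, which include an alpha, a beta and a gamma chain. LAMC1, the gamma chain of most laminins, had 4963, 5032 and 4598 in oncospheres, against 2023, 1835 and 2045 in monolayer. Its log2 change was 1.31 ± 0.07 (limma adjusted p = 8.16e-06), and its other probe set was 0.88 higher.

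LAMB1 had 2615, 2156 and 2225 in oncospheres, against 885, 824 and 946 in monolayer (log2 change 1.39 ± 0.09, limma adjusted p = 2.01e-05), and both of its probe sets were higher. LAMB2, the beta chain of laminins of kidney and synapse basement membranes, had 658, 687 and 798 in oncospheres, against 392, 321 and 401 in monolayer, with a log2 change of 0.95 ± 0.11 (limma adjusted p = 0.000318). LAMB3, the beta chain of the laminin that anchors epithelia, had 1707, 1493 and 1787 in oncospheres and 1768, 1517 and 2032 in monolayer. The LAMB3 groups overlapped, and the difference was not called (log2 change -0.09, 95% confidence interval -0.35 to 0.18).

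LAMA5, the alpha chain of many adult epithelial basement membranes, had 5008, 1960 and 2227 in oncospheres, against 642, 361 and 1090 in monolayer. Its log2 change of 2.15 ± 0.44 was large (limma adjusted p = 0.00736), but the arrays differed among themselves by up to 2.56-fold in oncospheres and 3.02-fold in monolayer, more than for any other member. Only 1 probe set represents LAMA5, and the call was lost where the 5th percentile was subtracted (limma adjusted p = 0.0699). LAMA4, an alpha chain of vessel and muscle basement membranes, had 764, 746 and 756 in oncospheres, against 330, 281 and 318 in monolayer (log2 change 1.29 ± 0.07, limma adjusted p = 1.12e-05). Of its 5 probe sets 2 were higher, the second with a log2 change of 0.39. The 3 others were not called, at log2 changes between -0.07 and 0.15.

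LAMA1, an alpha chain best known from embryonic basement membranes, had 76.2, 102 and 88 in oncospheres, against 118, 104 and 112 in monolayer. It was dim, its groups came close to each other, and its log2 change of -0.34 ± 0.11 was near the threshold (limma adjusted p = 0.0445). With the 5th percentile subtracted it was -0.94 (limma adjusted p = 0.152). Its other probe set was not called (-0.11), and the call on LAMA1 was lost in 10 of 19 alternative settings. LAMA2, the alpha chain of muscle basement membranes, had 130, 125 and 130 in oncospheres and 120, 126 and 121 in monolayer and was not called (log2 change 0.07).

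**Figure D3:**
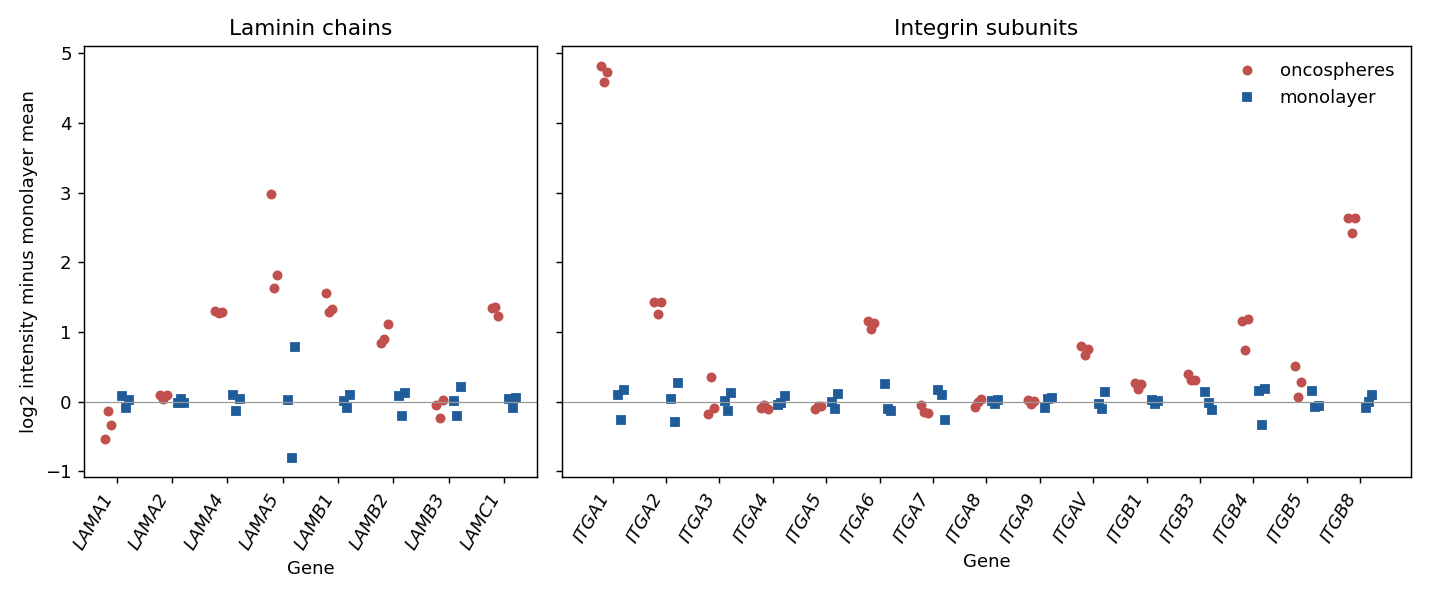
Log2 intensity on each array minus the monolayer mean of the same gene (y axis) for the 8 measured laminin chains (left) and 15 measured integrin subunits (right), with oncospheres as red circles and monolayer as blue squares. The oncosphere values of the chains LAMA4, LAMA5, LAMB1, LAMB2 and LAMC1 lie above all of their monolayer values. So do those of the subunits ITGA1, ITGA2, ITGA6, ITGAV, ITGB1, ITGB3, ITGB4 and ITGB8.

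Nidogens and the heparan sulfate proteoglycans agrin (AGRN) and perlecan (HSPG2) connect laminin and collagen networks in the basement membrane. None of the 4 was called by limma, and none of their brightest probe sets had an unadjusted p below 0.05. Perlecan had 216, 152 and 212 in oncospheres and 241, 165 and 275 in monolayer (log2 change -0.22, 95% confidence interval -0.68 to 0.25). Agrin had 196, 278 and 274 in oncospheres and 256, 237 and 233 in monolayer (log2 change 0.03, 95% confidence interval -0.27 to 0.33). A second AGRN probe set had 275, 224 and 274 in oncospheres and 217, 201 and 239 in monolayer and was not called either (log2 change 0.23, limma unadjusted p = 0.0462, adjusted p = 0.127), as were the 2 others (-0.08 and -0.1). NID1 (-0.08, 95% confidence interval -0.36 to 0.2) and NID2 (-0.11, -0.28 to 0.06) were dim, NID2 below the median intensity on all arrays. At such intensities a change of NID1 or NID2 could have gone undetected, and the interval of HSPG2 allowed a decrease beyond 1.5-fold.

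Of the 16 elastic fibre and microfibril proteins, 5 were higher in oncospheres, 2 were lower and 9 were not called, with a median log2 change of 0.06. The increases were those of MFAP2, FBN1, LTBP3, LTBP2 and EFEMP2. MFAP2, a small glycoprotein that binds fibrillin in microfibrils, had 4022, 4264 and 4168 in oncospheres, against 833, 1090 and 968 in monolayer. Its log2 change was 2.12 ± 0.1 (limma adjusted p = 4.7e-06), from 1 probe set. Fibrillin 1 (FBN1), the backbone of microfibrils, had 1064, 1552 and 1514 in oncospheres, against 474, 351 and 513 in monolayer. The change of FBN1 was 1.62 ± 0.18 (limma adjusted p = 0.000285), and all 3 of its probe sets were higher.

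The latent TGF-beta binding proteins attach to fibrillin, and most of them hold TGF-beta in its inactive form. LTBP3 had 267, 321 and 273 in oncospheres, against 151, 147 and 163 in monolayer (log2 change 0.9 ± 0.08, limma adjusted p = 0.000129). A second LTBP3 probe set was 0.56 higher and the third, at 151, 139 and 154 in oncospheres and 153, 159 and 147 in monolayer, was not called. LTBP2, which binds fibrillin but not latent TGF-beta, had 298, 278 and 308 in oncospheres, against 192, 189 and 224 in monolayer (log2 change 0.55 ± 0.08, limma adjusted p = 0.00128). LTBP4 had 182, 170 and 184 in oncospheres, against 161, 152 and 163 in monolayer. Although these groups did not overlap, LTBP4 was not called (log2 change 0.17, limma adjusted p = 0.0721), and of its 3 other probe sets 1 was higher (0.23) and 2 were not called.

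Within the fibulins the 2 changed members went opposite ways. EFEMP1, a fibulin of basement membranes and of the retina, had 159, 168 and 162 in oncospheres, against 624, 443 and 639 in monolayer. Its log2 change of -1.78 ± 0.13 (limma adjusted p = 4.14e-05) was close to that of CRIM1. All 3 of its probe sets were lower, with changes between -1.78 and -0.17. EFEMP2, a fibulin required for elastic fibre assembly, had 218, 207 and 206 in oncospheres, against 164, 156 and 170 in monolayer (log2 change 0.37 ± 0.06, limma adjusted p = 0.00214). The fibulins FBLN1, FBLN2 and FBLN5 were not called, at log2 changes of 0.16, -0.02 and -0.09.

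EMILIN2, a glycoprotein deposited at the border of elastin and microfibrils, had 305, 267 and 301 in oncospheres, against 364, 378 and 363 in monolayer (log2 change -0.34 ± 0.07, limma adjusted p = 0.00614). Its other 2 probe sets were not called and had log2 changes of -0.06 and 0.13. Elastin itself (ELN), the second fibrillin FBN2, EMILIN1 and the microfibril proteins MFAP4 and MFAP5 were not called, with log2 changes between -0.16 and 0.09. In FBN2, EMILIN1, MFAP4, MFAP5, FBLN2 and FBLN5 no array was above the median intensity, so that a change could have gone undetected in these 6 genes.

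**Figure D4:**
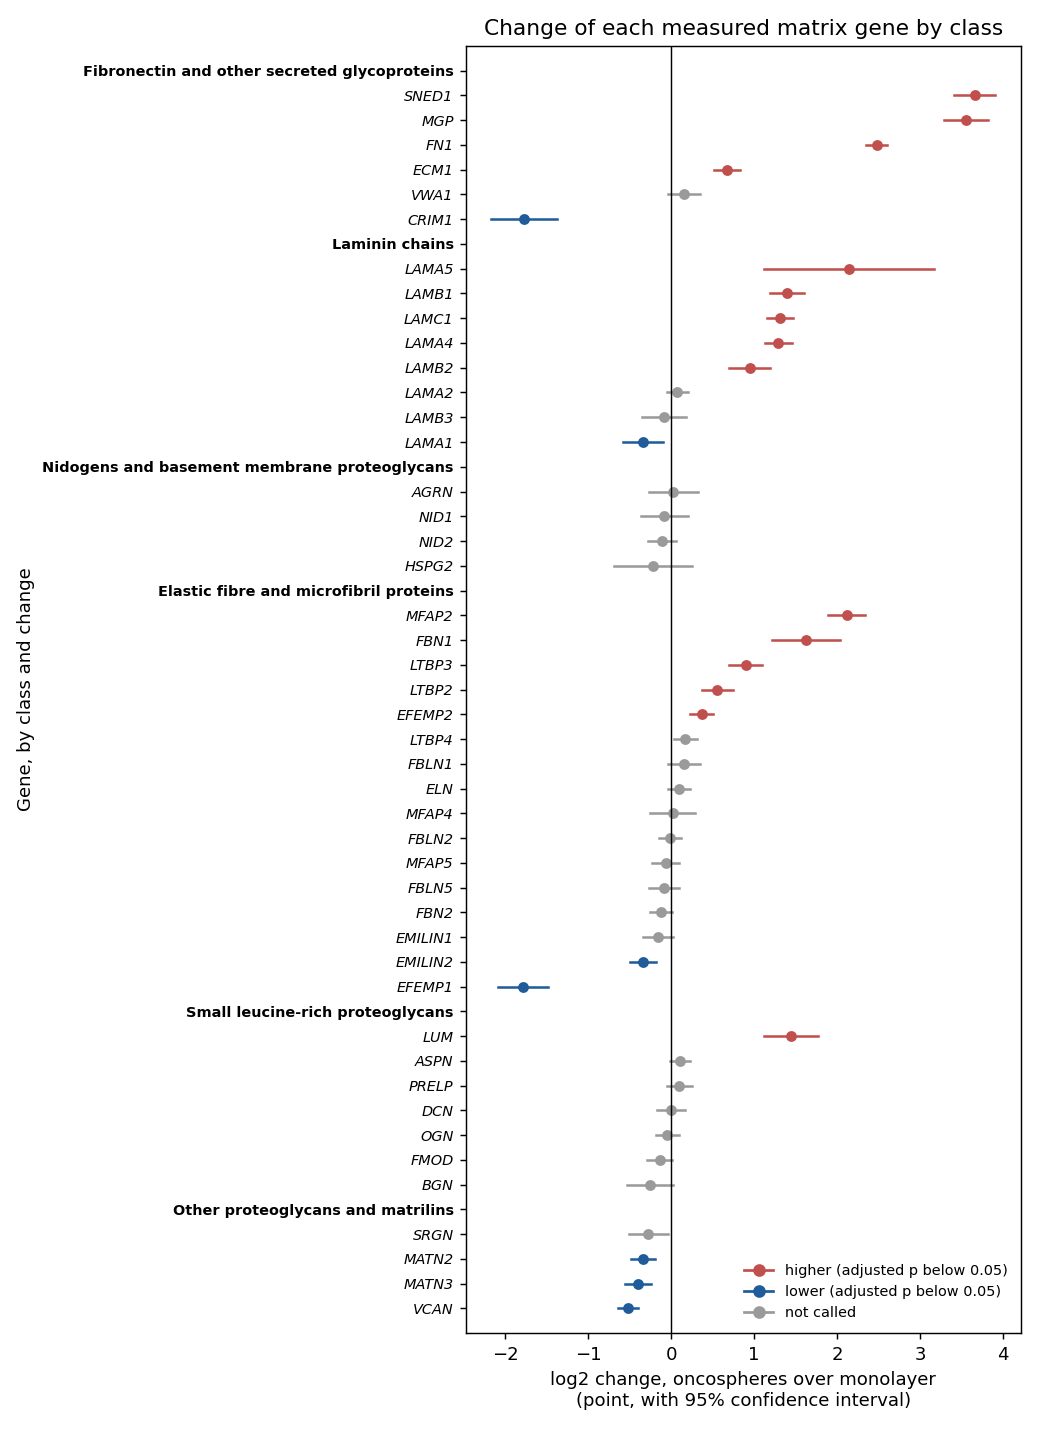
Log2 change of oncospheres over monolayer (x axis, points) with its 95% confidence interval (lines) for the 45 measured matrix genes, ordered by class and change (y axis). Genes called higher are red, genes called lower are blue and genes not called are grey. Red points are most frequent among the secreted glycoproteins (4 of 6) and the laminin chains (5 of 8).

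Small leucine-rich proteoglycans sit on collagen fibrils and control their width, and BGN and DCN also bind TGF-beta. Of the 7 members only lumican (LUM) was called. LUM had 192, 241 and 154 in oncospheres, against 68.4, 73.8 and 70.1 in monolayer, with a log2 change of 1.44 ± 0.14 (limma adjusted p = 0.000167). The monolayer values of LUM lay below the median intensity, and with the 5th percentile subtracted its log2 change was 2.98. A dimmer LUM probe set had 68.7, 66.7 and 81.7 in oncospheres and 76.3, 72.9 and 76.2 in monolayer and was not called (log2 change -0.06).

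Decorin (DCN) had 123, 118 and 105 in oncospheres and 116, 110 and 119 in monolayer and was not called. Of its 6 other probe sets 1 was higher, with 139, 112 and 132 in oncospheres, against 88.5, 93.9 and 104 in monolayer (log2 change 0.42, limma adjusted p = 0.0134), and 5 were not called. No DCN probe set was above the median intensity on all arrays. Biglycan (BGN), a ligand of TLR2 and TLR4, was not called (log2 change -0.26, 95% confidence interval -0.53 to 0.02) but was lower without the array of monolayer replicate 2, where the log2 change of BGN was -0.39 (limma adjusted p = 0.0185). FMOD, PRELP, OGN and ASPN were not called, with log2 changes between -0.14 and 0.1, and OGN and ASPN were below the median intensity on all arrays. No member of this class lay above the median on every array.

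The other proteoglycans and matrilins were the class with the most decreases, with 3 of 4 lower and a median log2 change of -0.37. Versican (VCAN), a large chondroitin sulfate proteoglycan that binds hyaluronan, had 85.5, 87.8 and 86.4 in oncospheres, against 124, 126 and 122 in monolayer. Its log2 change was -0.52 ± 0.05 (limma adjusted p = 0.00018), all 5 of its probe sets were lower, and it was -1.41 with the 5th percentile subtracted. VCAN was dim: its oncosphere values lay below the median intensity and its monolayer values just above it. Some of its other probe sets lay below the median on every array. The matrilins are adaptor proteins that link collagens to proteoglycans. MATN2 had 202, 196 and 211 in oncospheres, against 271, 244 and 256 in monolayer (log2 change -0.34 ± 0.06, limma adjusted p = 0.00448), and its dimmer probe set was not called (-0.02). MATN3 had 69.3, 64.9 and 60.3 in oncospheres, against 84.3, 83 and 88.4 in monolayer, a log2 change of -0.4 ± 0.07 (limma adjusted p = 0.00282) at intensities below the median on every array.

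Serglycin (SRGN), the proteoglycan of secretory granules, was not settled. Its brightest probe set had 8590, 6779 and 8845 in oncospheres and 9914, 9533 and 9668 in monolayer (log2 change -0.28, limma adjusted p = 0.0783). These groups did not overlap, and with repeated quantile normalization the log2 change of SRGN was called as lower (-0.3, limma adjusted p = 0.0413). A second bright SRGN probe set had 9422, 7829 and 9082 in oncospheres and 6331, 9088 and 7849 in monolayer, which overlapped (log2 change 0.19, limma adjusted p = 0.358). The 2 bright SRGN probe sets differed in sign.

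Several probe sets were measured for 33 of the members, and 12 had 1. Over all 119 probe sets of the members, 34 were higher, 17 were lower and 68 were not called. The share called over all probe sets of the arrays is not given here. Of the 17 called members with several probe sets, 10 had every probe set called in the same direction: FN1, SNED1, CRIM1, LAMB1, LAMC1, FBN1, EFEMP1, EFEMP2, LTBP2 and VCAN. In the other 7, MGP, LAMA1, LAMA4, EMILIN2, LTBP3, LUM and MATN2, some probe set was not called. In MGP, LAMA4, EMILIN2, LTBP3, LUM and MATN2 the calls came from probe sets with the suffix _s_at or _x_at, which can match several transcripts or genes. In the called members CRIM1, EFEMP1, EFEMP2, VCAN, ECM1, LAMA5 and LAMB2, every probe set had such a suffix. No member had probe sets called in both directions. The size of several changes depended on the probe sets used. Averaged over all probe sets of the gene, the log2 change of SNED1 was 1.92, the log2 change of MGP 1.82, the log2 change of LAMA4 0.38, the log2 change of EFEMP1 -1.04 and the log2 change of LUM 0.69. Without the suffixed probe sets, the log2 change of FN1 was 1.71 and the log2 change of FBN1 0.84. Each of these 7 genes was still called in the setting for which its value is given here. Without the suffixed probe sets, the calls on MGP, LAMA4 and LUM were lost, and EFEMP1 had no probe set left.

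**Figure D5:**
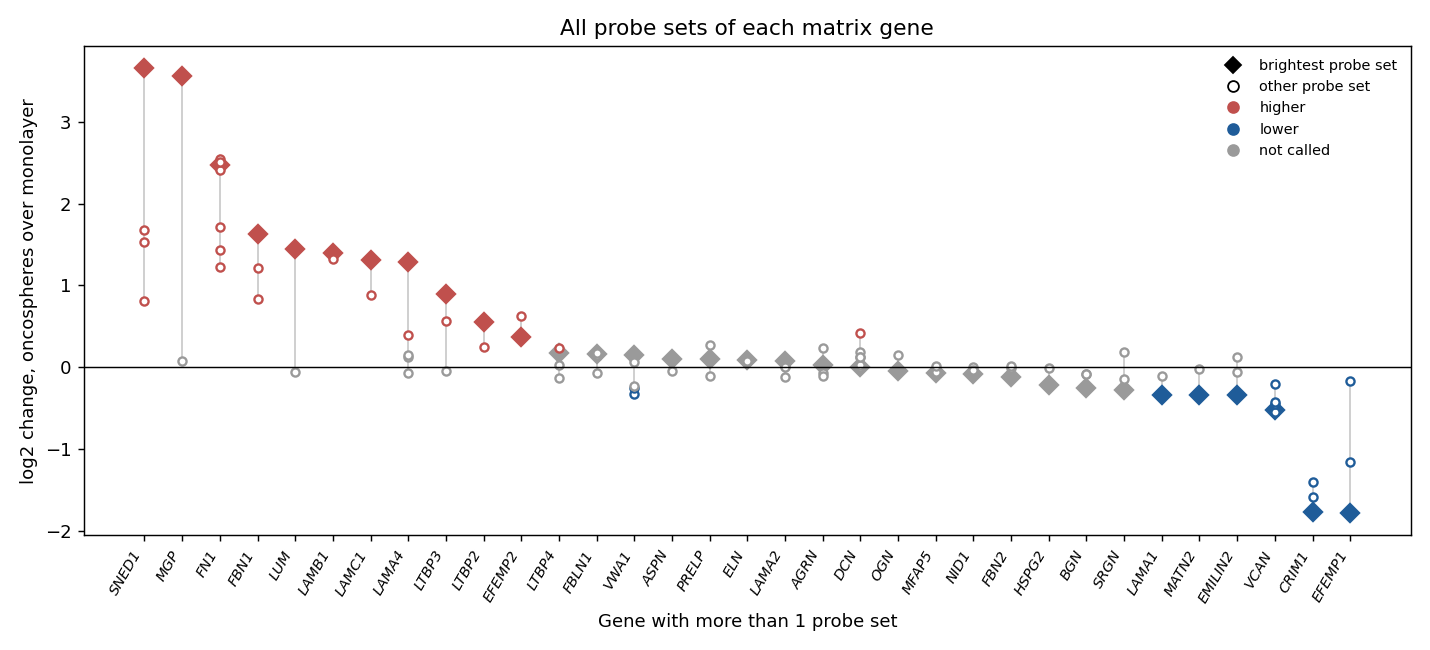
Log2 change of oncospheres over monolayer (y axis) of every probe set of the 33 matrix genes with several (x axis). Diamonds are the brightest probe set of each gene, open circles its other probe sets, and the colors give the call as higher, lower or not called. The probe sets of SNED1, FN1, FBN1, CRIM1 and VCAN lie on 1 side of 0, whereas those of MGP and LUM include 1 near 0.

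Oncosphere replicate 2 stood apart from the other oncospheres on the second principal component, which held 6.89% of the variance. On the first, which held 79.1%, it lay at -37.1, against -47.9 and -45.7 for the other oncospheres, and so nearer to monolayer (41.7 to 45.1). Over the 15 members called with at least a 1.5-fold change, the median share of the way back to the monolayer mean was 0.021 on this array. It lay nearer to monolayer than the mean of the other oncosphere arrays for 8 of the 15, farthest in LAMA5 (0.32), and in the opposite direction in LUM (-0.38) and LTBP3 (-0.31). Without it, 16 members were higher and 7 were lower, and the added one was LTBP4, for which the log2 change of LTBP4 was 0.21 there (limma adjusted p = 0.0496).

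Other genes of the same families were for the most part not called, as was the case over all genes, of which 34.9% were called. Of 33 measured relatives outside the list, 4 (12.1%) were higher and 2 (6.06%) were lower, with a median log2 change of -0.02. Over all genes, 17.3% were higher and 17.5% were lower. The lists of relatives, receptors and partners were also chosen with earlier results of these data known. LTBP1, the most widely made latent TGF-beta binding protein, had 2696, 2214 and 2388 in oncospheres, against 643, 670 and 638 in monolayer (log2 change 1.9 ± 0.08, limma adjusted p = 3.32e-06). Peroxidasin (PXDN), which cross-links collagen IV in basement membranes, had 4100, 4322 and 4078 in oncospheres, against 1384, 1405 and 1497 in monolayer (1.54 ± 0.06, limma adjusted p = 2.45e-06). Hemicentin HMCN1, a large relative of the fibulins, was 0.83 ± 0.1 higher (the log2 change of HMCN1 was 2.11 with the 5th percentile subtracted) and MFAP3L, a membrane protein related to MFAP3, had a log2 change of -0.38 ± 0.06. NDNF was higher and ACAN lower with smaller changes, and the remaining 27 relatives were not called.

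The receptors to which these proteins bind were measured for 26 genes. Of these, 12 (46.2%) were higher in oncospheres, 1 (3.85%) was lower and 13 were not called, with a median log2 change of 0.25. Among all genes, 17.3% were higher and 17.5% were lower. The integrin subunit ITGA1, a receptor for collagens and laminins, had 5459, 4653 and 5109 in oncospheres, against 205, 160 and 216 in monolayer (log2 change 4.72 ± 0.12, limma adjusted p = 5.52e-07). ITGB8, which with ITGAV binds latent TGF-beta, had 1176, 1014 and 1169 in oncospheres, against 176, 189 and 202 in monolayer (2.57 ± 0.08, limma adjusted p = 1.66e-06). Averaged over all probe sets, the log2 change of ITGA1 was 3.73 and the log2 change of ITGB8 0.71. The oncosphere values of both subunits lay above all of their monolayer values. ITGA2, a further collagen and laminin receptor, had 3854, 3407 and 3870 in oncospheres, against 1467, 1162 and 1720 in monolayer (1.37 ± 0.13, limma adjusted p = 0.000155). TLR2, a receptor of BGN, rose by nearly as much as ITGA2, with 568, 464 and 560 in oncospheres, against 200, 217 and 200 in monolayer (1.36 ± 0.09, limma adjusted p = 2.2e-05), and is named after its values were seen.

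The laminin receptor subunit ITGA6, chosen after its values were seen, had 6430, 5914 and 6256 in oncospheres, against 3400, 2663 and 2610 in monolayer (log2 change 1.11 ± 0.1, limma adjusted p = 0.000125). The fibronectin receptor subunit ITGA5 was not called (log2 change -0.09), whereas its partner ITGB1 was 0.23 higher (limma adjusted p = 0.0156), a call that was lost without oncospheres replicate 1 or 3 or monolayer replicate 2 (log2 change of ITGB1 0.21, 0.22 and 0.21). Syndecan SDC1, a cell surface heparan sulfate proteoglycan, was the only receptor of the list that was lower. It had 651, 674 and 670 in oncospheres, against 1090, 1078 and 989 in monolayer (log2 change -0.66 ± 0.06, limma adjusted p = 0.000118), whereas SDC2 and SDC3 were higher by 0.69 and 0.53. ITGA5, ITGB1, SDC2 and SDC3 were likewise named after their values were seen.

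Among 34 partners in assembly, modification and cross-linking, 16 (47.1%) were higher, 6 (17.6%) were lower and 12 were not called. Their median log2 change was 0.3. The share of lower partners was close to the 17.5% of all genes, whereas 17.3% of all genes were higher. The growth factor and cross-linking genes TGFB2 and TGM2 were among the decreases. TGFB2, a growth factor stored by latent TGF-beta binding proteins, had 503, 590 and 472 in oncospheres, against 2154, 1386 and 1299 in monolayer (log2 change -1.6 ± 0.18, limma adjusted p = 0.000354). TGFB3 and TGFB1, named after their values were seen, were higher by 0.58 and 0.33 (limma adjusted p = 0.00186 and 0.0055). The sign of TGFB1 was reversed without _x_at and _s_at probe sets. Transglutaminase TGM2, which cross-links fibronectin and other matrix proteins, had 621, 497 and 553 in oncospheres, against 1566, 1323 and 1468 in monolayer (-1.39 ± 0.1, limma adjusted p = 3.17e-05). Of the 22 called partners, 16 were higher.

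Among the increases, ADAMTSL6, which promotes fibrillin microfibril assembly, had 1372, 1024 and 1352 in oncospheres, against 519, 467 and 618 in monolayer (log2 change 1.22 ± 0.14, limma adjusted p = 0.000324). Averaged over all probe sets of this gene, now named THSD4, the log2 change of THSD4 was 0.31. PCSK5, a convertase that cleaves precursor proteins, had 183, 190 and 185 in oncospheres, against 78, 91.9 and 90.9 in monolayer (1.1 ± 0.08, limma adjusted p = 2.77e-05). Outside the rule for named genes and after their values were seen, 4 more that were higher are given for their known roles. BMP1, which trims procollagens and other matrix precursors, was 1.06 higher, and lysyl oxidase (LOX), which cross-links elastin and collagen, was 0.97 higher. The enzymes of the vitamin K cycle that MGP depends on, VKORC1 and GGCX, were higher by 0.85 and 0.46. Of the relatives of LOX, LOXL1 and LOXL3 were lower (log2 changes of -0.25 and -0.3), and LOXL2 and LOXL4 were not called. The log2 change of BMP1 was 0.46 when averaged over its probe sets, and the log2 change of PCSK5 was 2.44 with the 5th percentile subtracted.

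Markers of other cell types were read beside these results. The summed intensity of 9 fibroblast and smooth muscle markers was 5326 to 5611 in oncospheres and 2673 to 2977 in monolayer. Sums of probe sets are led by the brightest, here COL1A1, without which the sum was 1317 to 1564 in oncospheres and 1258 to 1314 in monolayer. COL1A1, COL3A1 and ACTA2 were higher and TAGLN was lower. PDGFRB, COL1A1, ACTA2 and TAGLN were above the median intensity on every array, and PDGFRA, FAP and PDPN on none. The 6 endothelial markers summed to 878 to 1125 in oncospheres and 674 to 696 in monolayer, and without PECAM1 to 449 to 473 in oncospheres and 487 to 505 in monolayer. PECAM1 was higher and KDR lower, with PECAM1 above the median on every array and CDH5, VWF and CLDN5 on none. The 5 measured leukocyte markers summed to 546 to 618 in oncospheres and 513 to 530 in monolayer. Of these, CD14 and LYZ were higher (log2 changes of 0.52 and 0.45) and ITGAM was lower (-0.35). CD14 was above the median on every array, and PTPRC and LYZ on none. The 10 luminal epithelial markers summed to 11117 to 11729 in oncospheres and 14234 to 14891 in monolayer, with KRT19 higher (0.77) and KRT8 (-0.32), KRT18 (-0.64) and EPCAM (-0.34) lower. The 7 basal and mesenchymal markers summed to 41208 to 44501 in oncospheres and 48271 to 49185 in monolayer, with ZEB1 higher (0.69) and AXL (-1.89), EGFR (-0.78) and CAV1 (-0.48) lower. The part of these markers in the changes of the matrix genes was not tested.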

How the data were processed

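Expression was measured with 1 biotin-labelled array per culture, from 100 ng of total RNA, in 3 oncosphere and 3 monolayer cultures of MDA231-LM2 cells. Each probe set had 1 deposited intensity per array, on a linear scale, which the authors had made by robust multi-array averaging (RMA). The submitters' processing notes name the affy package, whose version is not given in the sources used here. Log2 was taken before any fit, since the values were not on the log2 scale assumed when the tests were chosen. The lowest value was 48.02 and array medians lay between 112.6 and 114.1, so that folds of dim probe sets are uncertain. The number of arrays limits the precision.

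After 62 control probe sets were left out, oncospheres were compared with monolayer in limma 3.58.1 (R 4.3.3), with a linear model and empirical Bayes moderation and with Benjamini-Hochberg adjustment over 54613 probe sets. The platform annotation gave 41091 of these 1 symbol, 1801 several and 11721 none. The procedure was tested on simulated data. The members, the classes and the lists of relatives, receptors, partners and markers were chosen with earlier results of these data known. Every member is named. Of each related list, up to 4 called genes with the largest absolute change are named, so chosen that both directions are present where both were called. Promoters of 250 bases came from RefSeq (GRCh38.p14), and 7 members had several listed starts, of which the first was used. The search for the core TGACGT was added after the data were seen. Protein sequences were not used here. Figures were drawn with matplotlib 3.10.9.

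The alternatives changed 1 choice at a time. For the scaling of arrays, cyclic loess, median centring, repeated quantile normalization and a background equal to the 5th percentile of each array, subtracted down to a floor of 16, were used. For the model, an intensity-dependent prior made robust to outliers, array weights and a block for the replicate number were used. For the probe sets, those that were dim or had the suffix _x_at or _s_at were omitted, probe sets of 1 gene were averaged, or p was adjusted over the probe sets chosen for the genes. For the call, an adjusted p below 0.01 or a change of at least 1.5-fold was required. Each array was also left out in turn.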

Additional observations from a re-analysis of the deposited data

How the results depend on the processing

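Without _x_at and _s_at probe sets, 35 members were left, of which 7 were higher and 3 were lower. CRIM1, EFEMP1, EFEMP2, VCAN, ECM1, LAMA5 and LAMB2 had no probe set left, so that their calls could not be checked in this setting. By the remaining probe sets the sign was reversed in VWA1 (-0.33), LTBP3 (-0.051), LUM (-0.060), LAMC3 (-0.38), ACAN (0.14), ITGB4 (-0.045) and TGFB1 (-0.13). With a change of at least 1.5-fold required, 2 members were lower, 1429 genes in all were higher and 1107 lower, and of the relatives 0 and of the partners 2 were lower. At an adjusted p below 0.01, 1 relative and 2 partners were lower. Leaving out 1 array at a time gave 15 to 16 higher and 6 to 7 lower members, and 1 to 2 lower relatives and 1 to 2 lower receptors. The call on LAMA1 was lost without oncospheres replicate 1 or 3 and without any single monolayer replicate, and those on LAMA5 and MATN3 with the 5th percentile subtracted. Without _x_at and _s_at probe sets the calls on MGP, LAMA4, EMILIN2, LTBP3, LUM and MATN2 were lost, and VWA1 was called lower. SRGN was called lower with repeated quantile normalization. Same-numbered arrays had deviations that correlated at 0.068, 0.082 and 0.089, and each of the 6 arrays correlated best with its own number. Whether the replicate numbers pair the cultures cannot be told from these small correlations. With the replicate number as a block, 15 members were higher and 6 lower, with 3410 for all genes higher and 3396 for all genes lower, and 1 relative was lower. No scaling moved the median change of all genes by more than 0.1. Some of these settings held fewer probe sets or arrays, and the cause of these changes was not tested.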
